A study of Rattus norvegicus with 16 samples.

Results

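Fructose was compared with no treatment in the hippocampus of male Sprague Dawley rats, an outbred laboratory strain. Messenger RNA was sequenced in 8 hippocampus samples, 4 untreated (control 1 to 4) and 4 from rats given fructose for 6 weeks (fructose 1 to 4). These are 8 of the 16 samples of the study, and they were chosen by the labels for tissue and treatment, not by any measured value. The other 8 samples are from hypothalamus and are used here only where a hippocampal difference is set beside the same difference there. Dose, route and age are not given in the sources used here, and whether every sample is its own animal is not stated in the labels. The p-values below therefore measure only the spread between these samples, which may be technical.

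The hippocampus is a cortical region that serves spatial and episodic memory, built from granule cells of the dentate gyrus, pyramidal cells of the CA fields, inhibitory interneurons and glia. Fructose enters cells mainly through the transporter GLUT5 (gene Slc2a5) and is phosphorylated by ketohexokinase (Khk). This step bypasses the main control point of glycolysis and consumes ATP, and uric acid is a product of the purine breakdown that follows in liver. In the brain the same sugar can also be handled by hexokinase or formed from glucose by the polyol pathway through sorbitol dehydrogenase (Sord). The study's title asks for the expression profile after fructose, and the genes below are grouped by what they are known to do.

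Expression was given as FPKM, fragments scaled to transcript length and to the mapped total, for 18087 loci with 16223 gene symbols. Of these loci, 11385 (62.9%) had a mean of at least 1 FPKM over the 8 libraries and were tested, and 6702 were left out as low. The deposited values hold no read counts and so give no sequencing depth per library. FPKM summed over loci came to between 353703 and 402099. Differences are given as log2 fold changes, fructose minus control, on the scale log2(FPKM + 1), which understates the change of low genes, with the standard error (SE) of the limma model. An error beside an FPKM mean is the SD over 4 libraries.

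Control 1 and fructose 1 stood apart from the other 6 libraries, once in each group. On a principal component with 62.9% of the variance they lay at -68.9 and -69, and the others between 15.9 and 31.7. With a term for replicate 1, 172 loci (1.51%) were higher and 565 (4.96%) lower in these libraries at an adjusted p of 0.05. A complexin locus, Cplx1, shows the form this took: it was listed at 0 in control 1 and in fructose 1 and at 1017 to 1461 FPKM in the other 6, while a second locus with the same symbol was at 155 to 300 FPKM in all 8. Nefl, the light neurofilament chain, did the same, with 1 locus listed at 0 in both replicate 1 libraries and at 160 to 266 FPKM elsewhere and another at 112 to 214 FPKM throughout. Of 109 loci under 0.5 FPKM in both replicate 1 libraries and at 10 FPKM or more in the other 6, 104 share their symbol with another locus. After summing the loci of each symbol, 146 symbols still differed. Among genes with a single locus, Kcnf1, a potassium channel subunit, was at 15.2 and 13.6 FPKM in the replicate 1 libraries and at 0.297 to 0.941 FPKM in the others. Of the genes named below, Camk2a, Slc17a7, Neurod6, Prox1, Reln, Insr, Igf2, Fmod, Lrrc33, Rps4y2, Rps9, Slc1a6, Chga, Adam1a, Arsj and Btbd16 have 2 loci, and unless both are given the values are those of 1 locus and are uncertain. Cplx1 and Nefl were chosen after their values were seen.

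Control 4 stood apart in another way. Tph1, which makes serotonin in the pineal gland, was at 370 FPKM in control 4 and at most 0.791 FPKM in the other 7 libraries. Crx, a transcription factor of photoreceptors and pineal cells, was at 24.3 FPKM there and listed at 0 in the other 7. Asmt, the last enzyme of melatonin synthesis, was at 14.4 FPKM against 0.233 to 0.665 FPKM, and the cone transducin subunit Gnat2 at 64.1 against 0.116 to 0.851 FPKM. A list of 20 pineal and photoreceptor genes, drawn up after these values were seen, had its highest value in control 4 for 20 of 20 genes, each over 5 times the next library, and summed to 1020 FPKM there against 3.41 to 7.97 FPKM elsewhere. The part of this library's other content in the group difference was not tested. Values without control 4 are given below for some lists only. They are not given for the endothelial, pericyte and smooth muscle, and antigen presentation lists, whose summed FPKM was highest in control 4 (566, 1758 and 688).

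The tissue label was checked against marker genes. Camk2a, the kinase of excitatory synapses, was at 1193 to 1863 FPKM, Slc17a7, the vesicular glutamate transporter of cortical neurons, at 482 to 805 FPKM, and Neurod6, a factor of pyramidal neurons, at 39.4 to 78.7 FPKM. Prox1, the factor that marks dentate granule cells, was at 5.55 to 14.9 FPKM and Wfs1, enriched in CA1, at 76.3 to 197 FPKM. The hypothalamic neuropeptide genes Pmch and Agrp were at 0.152 to 1.12 and 0.255 to 0.712 FPKM. In the hypothalamus table the same 2 genes were at 559 to 2001 and 9.94 to 29 FPKM. Granule cell markers differed between libraries more than between groups: Prox1 was lowest in fructose 1 (5.55 FPKM) and highest in fructose 3 (14.9 FPKM). In samples of whole tissue, fewer cells of a type and less RNA per cell cannot be told apart.

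No locus passed the test. With limma's moderated test and Benjamini-Hochberg adjustment over 11385 loci, 0 loci (0%) had an adjusted p under 0.05, and the smallest adjusted p was 1. At an unadjusted p under 0.05 there were 38 higher loci (0.334%) and 54 lower loci (0.474%), 92 in all. That is fewer than this threshold marks on average where no locus differs. Blocking on the replicate number gave 89 higher (0.782%) and 114 lower (1%), 203 in all, and a replicate 1 term 55 (0.483%) and 79 (0.694%). Without both replicate 1 libraries there were 69 (0.607%) and 83 (0.73%), and with limma's array weights 427 (3.75%) and 231 (2.03%). Leaving out control 4 gave 182 (1.61%) and 61 (0.539%), and leaving it out with both replicate 1 libraries, a choice made after seeing the data, 347 (3.07%) and 131 (1.16%). Each of these fits had 0 loci past the adjusted threshold. Without control 3 there were 31 (0.272%) and 34 (0.298%), and 1 locus (0.00877%) passed the adjusted threshold. Most fold changes were small: the median over all tested loci was -0.00379, 48.6% of loci were positive, and 89.5% lay within 0.25 of 0. Only 69 loci lay more than 1 from 0. The libraries of the groups did not overlap for 29 higher loci (0.255%) and 47 lower loci (0.413%). Both counts are also fewer than exchangeable libraries would give on average where no locus differs. The genes named next are mainly the 15 of each kind with the smallest p. With fewer libraries more loci part by construction: 161 (1.42%) and 300 (2.64%) without both replicate 1 libraries, 178 (1.57%) and 149 (1.32%) without control 4, and 923 (8.17%) and 1130 (10%) without all 3. None of them passed the adjusted threshold with all 8 libraries. Non-overlap is used below to choose and describe genes, not as a test.

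**Figure D1:**
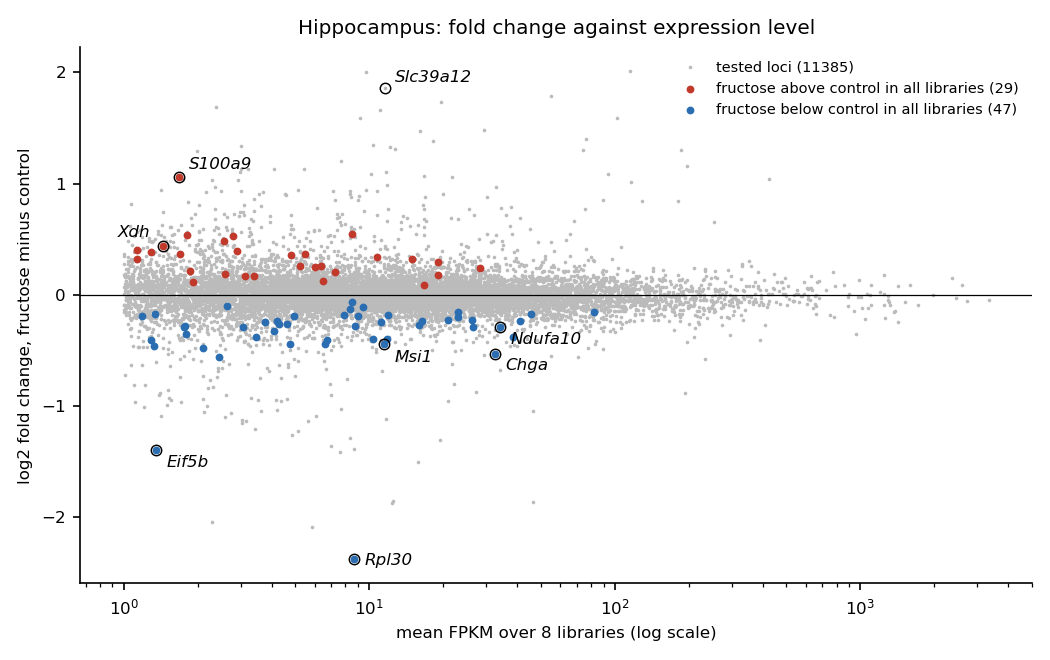
Log2 fold change (fructose minus control, vertical axis) against mean FPKM over the 8 hippocampus libraries (horizontal log axis) for the 11385 tested loci, with loci whose groups do not overlap in colour (29 higher, 47 lower). Most loci lie close to 0 at every level, Rpl30 is the lowest of the coloured loci at -2.38, and Slc39a12, at 1.86, is ringed although its groups overlap through 1 library.

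Several of the higher genes are known from myeloid cells. S100a9, a calcium-binding protein of neutrophils and monocytes, was at 0.55, 0.391, 0.527 and 1.49 FPKM in control 1 to 4 and at 3.93, 1.76, 2.6 and 2.15 FPKM in fructose 1 to 4. Every fructose library lay above every control library, with fructose 1 the highest and control 4 the nearest of the controls. The log2 fold change was 1.06 ± 0.24 (limma adjusted p = 1). Its partner S100a8 did not reach the level for testing, with 0.515, 0, 0 and 0.294 FPKM in control and 2.05, 0.777, 1.08 and 0.443 FPKM in fructose libraries, and control 1 lay above fructose 4. The mean of S100a9 was 0.738 FPKM in control libraries, so that it reached the testing level through the fructose libraries.

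Lsp1, an actin-binding protein of leukocytes, was at 1.9, 2.12, 2.11 and 2.04 FPKM in control and at 3.57, 5.51, 2.45 and 2.66 FPKM in fructose libraries. The controls lay within a narrow range and the fructose libraries were spread, with a log2 fold change of 0.53 ± 0.20. Gpr77, the second receptor for the complement fragment C5a, was at 1.26, 1.53, 1.05 and 1.55 against 1.82, 1.88, 2.43 and 2 FPKM (0.37 ± 0.13). Lrrc33, which tethers latent TGF-beta on macrophages and microglia and has 2 loci, was at 2.61, 1.92, 2.45 and 2.57 against 3.67, 3.21, 3.18 and 3.6 FPKM (0.39 ± 0.12). The whole neutrophil and monocyte list had 16 genes, of which 5 reached the testing level, all 5 with positive values (median 0.53). Camp, Ngp, Mpo and Elane, the granule proteins that define neutrophils, were not tested because they lay under that level. Of these 5 genes Lcn2 had a value of 0.01 and Csf3r one of 0.04.

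Among 17 tested genes of purine breakdown and nucleotide repair, 1 higher and 2 lower genes parted the groups, set beside 0.255% and 0.413% of all tested loci. The list was chosen with earlier results of these data known, so these counts are no test of it. Xdh, the xanthine dehydrogenase that makes uric acid, was at 1.49, 0.824, 1.12 and 0.922 FPKM in control and 1.79, 1.57, 1.95 and 1.95 FPKM in fructose libraries. Control 1 came closest to the fructose range, and the log2 fold change was 0.44 ± 0.14 (limma adjusted p = 1). Nudt1, which removes oxidised purine nucleotides, was at 1.59, 2.1, 1.36 and 1.77 against 0.948, 1.09, 1.12 and 0.683 FPKM, lower in all fructose libraries (-0.46 ± 0.14), and it reached the testing level through the control libraries. Pde9a, a phosphodiesterase that breaks down cyclic GMP, was at 14.7, 14.7, 12.9 and 12.2 against 11, 11.2, 10.2 and 7.94 FPKM, again with no overlap (-0.40 ± 0.13). Over the list 10 genes were positive and 7 negative, with a median of 0.06.

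**Figure D2:**
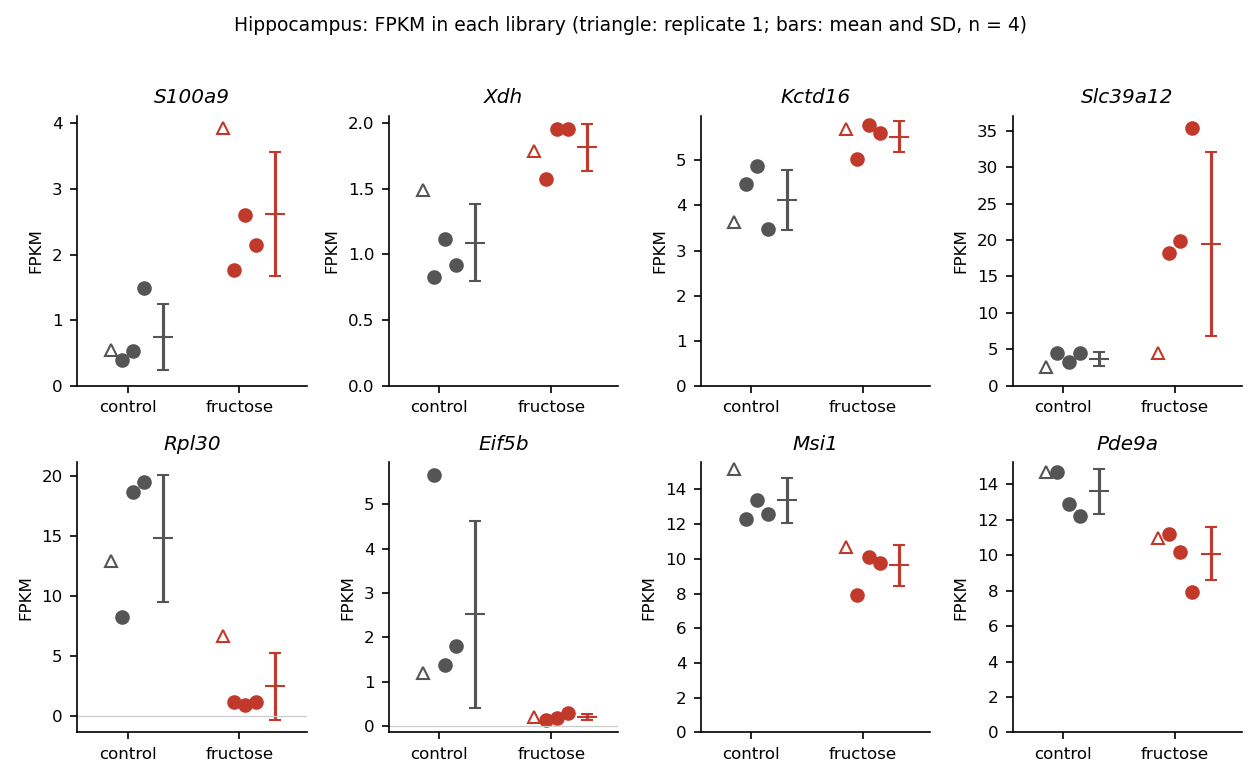
FPKM of 8 genes (vertical axes, starting at or just below 0) in the 4 control and 4 fructose libraries, each point a library, triangles replicate 1, bars mean and SD. The fructose libraries of S100a9, Xdh and Kctd16 all lie above and those of Rpl30, Eif5b, Msi1 and Pde9a all below the controls, and for Slc39a12 only fructose 1 (4.45 FPKM) lies among the controls.

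Rpl30 and Eif5b had the lowest fold changes among the loci that did not overlap, and Nmd3 is given with them for its role. Rpl30, which belongs to the large ribosomal subunit, was at 12.9, 8.23, 18.6 and 19.5 FPKM in control and at 6.69, 1.17, 0.921 and 1.19 FPKM in fructose libraries. Fructose 2 to 4 lay close together and fructose 1 between them and the controls. The log2 fold change was -2.38 ± 0.47 (limma adjusted p = 1), and the adjusted p was 0.25 without both replicate 1 libraries and 0.133 without fructose 1. Eif5b, the factor that joins the ribosomal subunits at initiation, was at 1.2, 5.67, 1.38 and 1.81 against 0.19, 0.13, 0.183 and 0.283 FPKM (-1.40 ± 0.33). Here control 2 was far above the other controls, and the gene reached the testing level through the control libraries. Nmd3, the export adaptor of the large subunit, was at 11.4, 11.2, 10.7 and 14.3 against 6.65, 9.94, 10.5 and 8.37 FPKM (-0.40 ± 0.16), with control 3 and fructose 3 nearly touching.

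Rps4y2, of the small-subunit S4 family, went the other way, at 8.01, 6.05, 8.9 and 4.42 against 10.3, 9.25, 10.9 and 10.5 FPKM (0.55 ± 0.19). It has 2 loci, and near-identical copies of ribosomal protein genes make its values, and also those of Rpl30, uncertain. A locus of Rps9, another small-subunit protein, was at 6.65, 4.99, 0 and 6.47 FPKM in control and at 0.067, 0, 0.079 and 0 FPKM in fructose libraries. It reached the testing level through the control libraries, as its fructose values lay near 0. The p that follows for this locus is therefore given as a description and not as support. Control 3 alone lay among the fructose libraries, and without it this locus was the single one past the threshold (limma log2 fold change -2.76 ± 0.15, adjusted p = 0.00238, against 1 with all 8 libraries). The second Rps9 locus, at 9.15, 7.15, 1.21 and 7.17 against 3.08, 0.676, 3.87 and 1.51 FPKM, had a value of -1.04 ± 0.53, and Rps9 was named after its values were seen.

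Such single loci were not typical of the ribosomal proteins. Of the 76 list genes with a locus, 63 were tested, 17 positive and 46 negative, with a median of -0.07 against -0.00379 for all tested loci. Rpl30 and Rps23, both lower, had an unadjusted limma p under 0.05, set beside 0.474% of all tested loci that were lower at that threshold. The list takes each gene at its locus with the highest mean, which for Rps9 is the second one. Rps23 was at 53.1, 55.3, 88 and 64.7 against 33.7, 36.4, 50 and 57.5 FPKM (-0.55 ± 0.22), with fructose 4 above control 1 and control 2. By library, the list lay highest in control 1 and lowest in fructose 4, at median deviations of 0.35 and -0.5 from the 8-library mean. The list median was 0.04 without fructose 4 and 0.03 without control 1, so that each of these libraries decides its sign. With array weights the median was 0.11, with 46 positive and 17 negative members. Translation factors had 12 positive and 28 negative of 40 (median -0.05).

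Of 59 tested genes of oxidative phosphorylation, 14 were positive and 45 negative (median -0.09). This list was also lowest in fructose 4 (-0.4), and its median was 0.03 without that library and 0.01 with array weights. Ndufa10, a subunit of complex I, parted the groups at 35.8, 36.3, 40.6 and 37.8 against 28, 33.4, 34.5 and 26.9 FPKM (-0.29 ± 0.11). Cox7b, a subunit of cytochrome oxidase, did not, at 83.8, 76, 97.6 and 127 against 59.5, 87.8, 76.4 and 61.9 FPKM (-0.42 ± 0.19). Also of mitochondria were Coq5, a methyltransferase of coenzyme Q synthesis, at 18.3, 16.8, 18.3 and 16.7 against 14.3, 14.1, 16 and 13.2 FPKM (-0.27 ± 0.10), and Gbas, a mitochondrial protein of the NIPSNAP family, at 29.7, 29.6, 26.9 and 30.5 against 25, 23.8, 22.9 and 22.8 FPKM (-0.29 ± 0.09). In both, the highest fructose library lay just below the lowest control library. Citric acid cycle genes (11 positive, 15 negative, median -0.01) and glycolytic genes (9 and 11, median -0.02) lay close to the median of all loci.

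Neuronal genes that parted the groups belonged to several systems. Kctd16, which binds GABA-B receptors as an auxiliary subunit, was at 3.64, 4.48, 4.88 and 3.48 FPKM in control and at 5.69, 5.03, 5.79 and 5.61 FPKM in fructose libraries (0.36 ± 0.12). Zdhhc2, the palmitoyltransferase of the synaptic scaffold PSD-95, was at 17.5, 18.3, 14.6 and 18 against 19.4, 22.2, 20.7 and 22 FPKM (0.29 ± 0.11). In both genes the fructose libraries were closely grouped, and control 3 was the highest control for Kctd16 and the lowest for Zdhhc2. Among receptors, Ptger3, a receptor for prostaglandin E2, was at 1.24, 0.641, 0.898 and 0.59 against 1.26, 1.33, 1.33 and 1.77 FPKM (0.40 ± 0.16), and control 1 almost met fructose 1. Rxfp1, the relaxin receptor, was at 1.15, 1.08, 0.719 and 1.01 against 1.21, 1.43, 1.77 and 1.98 FPKM (0.38 ± 0.15), with the same narrow gap in the replicate 1 libraries. Both had control means under 1 FPKM (0.842 and 0.99) and were tested through the fructose libraries.

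On the lower side, Slc1a6, the glutamate transporter EAAT4, was at 3.14, 3.64, 2.79 and 2.79 against 1.88, 1.54, 1.27 and 2.54 FPKM (-0.56 ± 0.16), and it has 2 loci. A locus of Chga, chromogranin A of secretory granules, was at 36.7, 31.8, 37.6 and 48.3 against 29.9, 24.1, 31.3 and 20.3 FPKM (-0.53 ± 0.18). The other Chga locus was near 0 in both replicate 1 libraries and at 21.3 to 95.1 FPKM in the other 6, with overlapping groups. Msi1, Musashi 1, which binds RNA in progenitors and astrocytes, was at 15.2, 12.3, 13.4 and 12.6 against 10.7, 7.92, 10.1 and 9.77 FPKM (-0.44 ± 0.12, limma adjusted p = 1). Each fructose value of Msi1 lay below each control value, while over the 9 tested progenitor genes 4 were positive and 5 negative.

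The remaining genes of this kind have varied roles. Higher were Per2, a repressor of the circadian clock, at 5.56, 5.6, 5.15 and 5.27 against 6.12, 6.9, 6.09 and 7.34 FPKM (0.25 ± 0.10), and Tmtc4, of the endoplasmic reticulum, at 10.8 to 14.7 against 15.7 to 17.4 FPKM (0.32 ± 0.12). Pofut1, which adds fucose to Notch, was at 5.43 to 6.03 against 6.32 to 8.07 FPKM (0.26 ± 0.11), Ccnf, cyclin F, at 0.739 to 1.02 against 1.11 to 1.59 FPKM (0.32 ± 0.13), and Adam1a, a fertilin subunit with 2 loci, at 1.03 to 1.55 against 1.77 to 3.08 FPKM (0.54 ± 0.17). Lower were Arl6, a small GTPase of the cilium, at 17.1 to 19.8 against 14.7 to 15.2 FPKM (-0.24 ± 0.09), and Ufsp2, a protease of the ubiquitin-like modifier UFM1, at 10.8 to 13.2 against 9.61 to 10.6 FPKM (-0.25 ± 0.10). Arsj, of the sulfatase family, was at 1.38 to 1.85 against 0.758 to 1.25 FPKM (-0.41 ± 0.14) and Btbd16 at 4.82 to 6.77 against 2.8 to 4.58 FPKM (-0.44 ± 0.16), both with 2 loci. Ccnf was tested through its fructose libraries (control mean 0.898 FPKM) and Arsj through its control libraries (fructose mean 0.967 FPKM). Of the 16 tested clock genes 10 were positive and 6 negative (median 0.03). Per2 was the single one that parted the groups, set beside 0.255% of all tested loci that parted higher.

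Slc39a12, a zinc importer of the ZIP family that is prominent in brain, had a large fold change for a gene with 1 locus. It was at 2.53, 4.51, 3.29 and 4.51 FPKM in control and at 4.45, 18.2, 19.8 and 35.4 FPKM in fructose libraries. Fructose 2 to 4 lay far above every control, and fructose 1 lay within the control range. The log2 fold change was 1.86 ± 0.52 (limma adjusted p = 1). Without both replicate 1 libraries it was 2.27 (adjusted p = 0.25), and without fructose 1 it was 2.40 (adjusted p = 0.164). The zinc handling list, Slc39a12 included, had 9 positive and 12 negative members of 21 tested, with a median of -0.03. Slc30a3, which loads zinc into synaptic vesicles of mossy fibres, was at 68.3 to 108 FPKM in control and 72.8 to 125 FPKM in fructose libraries (0.05 ± 0.21). Slc39a4, another importer, was at 14.5 FPKM in control 4 and at most 0.611 FPKM in the other 7 libraries, so that it was tested through that library.

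Genes that carry and break down fructose showed no separation of the groups. Slc2a5, the fructose transporter GLUT5, was at 2.56, 3.69, 2.94 and 2.73 FPKM in control and 4.09, 3.03, 3.15 and 3.36 FPKM in fructose libraries (0.15 ± 0.13). Khk was at 5.26, 3.48, 3.98 and 2.58 against 4.09, 3.41, 3.67 and 1.93 FPKM (-0.17 ± 0.23). Control 2 exceeded 3 fructose libraries for Slc2a5, and the Khk ranges largely coincided. Sord was at 14 to 16.8 against 14.9 to 20.6 FPKM (0.06 ± 0.13), and the hexokinase gene Hk1 at 112 to 197 against 139 to 179 FPKM (0.01 ± 0.19). Slc2a12, a further hexose transporter, had the largest value of the list, at 5.69, 2.67, 1.76 and 4.31 against 8.88, 6.57, 2.4 and 6.23 FPKM (0.59 ± 0.38), with wide overlap. Of 22 list genes 16 were tested, 7 positive and 9 negative, with a median of -0.01.

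Neurons were described by lists of inhibitory and excitatory cells, and no member passed the test. Of 15 tested interneuron markers, 14 were negative and 1 positive, with a median of -0.26 against -0.00379 for all loci. Gad2, a synthetic enzyme of GABA, was at 38.9, 49.7, 61.1 and 27.2 FPKM in control and 32.5, 29.5, 34.4 and 35.3 FPKM in fructose libraries (-0.36 ± 0.23). The vesicular GABA transporter Slc32a1 was at 40.5, 31.9, 55.5 and 24.5 against 38.5, 26.7, 29.6 and 22.7 FPKM (-0.33 ± 0.26). In both genes control 3 was the highest library and control 4 lay among or below the fructose libraries. Dlx1, a factor of interneuron development, was at 5.88, 5.4, 8.45 and 5.97 against 6.14, 4.23, 3.97 and 4.47 FPKM (-0.38 ± 0.17), and Reln, the matrix protein of a class of interneurons, at 26, 22.4, 19.5 and 17.2 against 19.7, 16.3, 18.7 and 14.3 FPKM (-0.28 ± 0.16). Pvalb, Sst and Vip, which mark the main classes, had values of -0.23, -0.25 and -0.13. As a list they lay at median deviations of 0.19, 0.19, 0.22 and -0.14 in control and 0.02, -0.04, -0.11 and -0.24 in fructose libraries. The list median stayed between -0.32 and -0.19 over the alternatives for which it was computed. It was not computed without control 4 and both replicate 1 libraries. Leaving out control 3 gave -0.19.

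Excitatory neurons were described by 3 regional lists and a general one. Of 9 tested general markers 8 were positive (median 0.08), with Slc17a7 at 0.12 ± 0.17 and Camk2a at 0.09 ± 0.17, and without control 4 the list had 2 positive and 7 negative members (median -0.03). Dentate granule cell markers had 5 positive and 4 negative members (median 0.01), CA1 markers 3 and 4 (median -0.06) and CA2 and CA3 markers 6 and 3 (median 0.13). Over the alternatives for which list medians were computed, the CA1 median lay between -0.24 and 0.25 and the dentate median between -0.22 and 0.11. Cpne4, a copine of CA3 neurons, led the last list, at 29.8, 57.9, 59 and 40.6 against 55.8, 71.4, 59.5 and 65.5 FPKM (0.47 ± 0.22). Control 1 and control 4 held its low values, and the highest control overlapped the lowest fructose library. Slc17a6, the vesicular glutamate transporter of subcortical neurons, was at 4.89, 4.83, 6.47 and 7.19 against 5.07, 4.01, 3.7 and 4.46 FPKM (-0.36 ± 0.15), and Tcf7l2, high in thalamus, at 3.19, 4.09, 3.96 and 4.31 against 3.02, 3.25, 2.33 and 3.25 FPKM (-0.31 ± 0.13). Both have their highest value in control 4.

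Synaptic and channel lists had medians near that of all loci, while granins and prohormone genes had the lowest median of the 30 pathway lists. For vesicle release, 28 of 33 tested genes were positive, but the median was 0.08, and without control 4 it was -0.03. The syntaxin Stx1a was at 81.8, 88.6, 62.8 and 46.6 against 84.6, 89.5, 98.9 and 68.1 FPKM (0.31 ± 0.21), with its lowest value in control 4, which was also the lowest library for the list as a whole (-0.36). Glutamate receptor and postsynaptic density genes divided evenly (17 positive, 18 negative, median -0.01), as did GABA synapse genes (14 and 13, median 0.00). Of the 27 tested GABA synapse genes Kctd16 alone parted the groups, set beside 0.255% of all tested loci that parted higher. Voltage-gated channels had 22 positive and 15 negative members (median 0.04). Granins and prohormone genes had 6 and 12 (median -0.16), among them Nptx2, a pentraxin that clusters AMPA receptors, at 19.4, 20.8, 19.4 and 24.7 against 15.4, 13.4, 19.7 and 16 FPKM (-0.37 ± 0.14), where only fructose 3 reached the control range. Pcsk1n, an inhibitor of a prohormone convertase, had the lowest value of that list (-1.05 ± 1), which comes from 1 library: 27.3 to 83.2 FPKM in 7 libraries and 1.15 FPKM in fructose 4. Bdnf, the neurotrophin of activity-dependent plasticity, was at 8.99 to 14.1 against 6.73 to 15.9 FPKM (0.10 ± 0.25). Immediate early genes had 19 positive and 7 negative members (median 0.07) and ranged by library from 0.52 in control 1 to -0.52 in fructose 4, and the list median was -0.04 without control 3 and -0.03 without fructose 2.

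**Figure D3:**
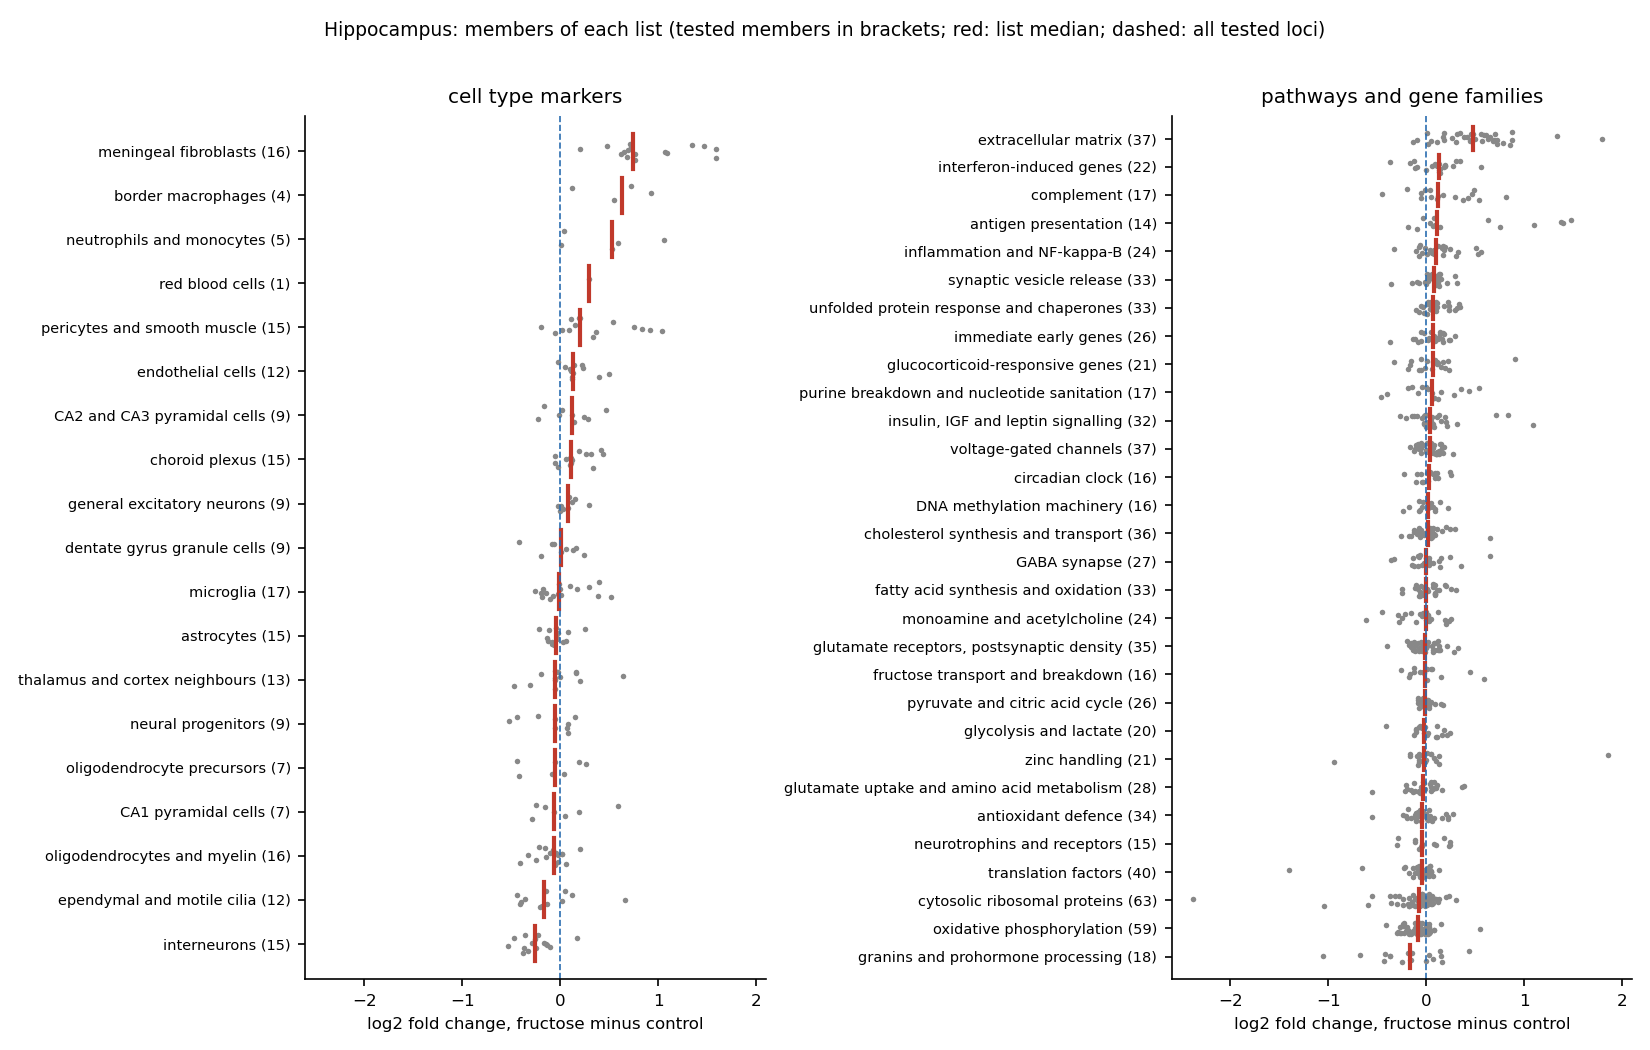
Log2 fold change (fructose minus control, horizontal axes) of every tested member (grey points) of 19 cell type lists (left) and 30 pathway lists (right) in hippocampus, with list medians in red and the median of all tested loci dashed. Meningeal fibroblast and extracellular matrix genes lie far to the right (medians 0.75 and 0.48) with border macrophages and neutrophils (0.64 and 0.53), and interneuron markers furthest to the left among cell types (-0.26).

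Genes of the brain's coverings and matrix had high list medians, and their levels followed single libraries. Of 16 tested meningeal fibroblast markers 16 were positive (median 0.75), of 37 matrix genes 35 (median 0.48), and of 4 border macrophage markers 4 (median 0.64), with no member past the test. Col1a1, the main chain of type I collagen, was at 33.6, 7.35, 8.67 and 54.2 FPKM in control and at 51.5, 191, 38.9 and 53.8 FPKM in fructose libraries (1.79 ± 0.72). Slc22a6, an organic anion transporter of the meninges, was at 9.8, 0.49, 0.647 and 11.1 against 15.2, 21.3, 7.79 and 7.19 FPKM (1.59 ± 0.77). Control 2 and control 3 held the low values and fructose 2 the high ones. Control 4 lay among the fructose libraries for both genes, and control 1 for Slc22a6 alone. Summed FPKM of the meningeal markers was 382, 88.9, 65.5 and 544 in control and 485, 725, 247 and 366 in fructose libraries. The list median was 0.52 without control 2, 0.47 without control 3, 0.52 without fructose 2 and 1.07 without control 4. The border macrophage median was 0.40 without control 2, 0.42 without control 3 and 1.08 without control 4. The matrix median was 0.28 without control 2, 0.28 without control 3, 0.25 without fructose 2 and 0.76 without control 4. The proteoglycan genes Bgn and Fmod were also lowest in control 2 and control 3, at 27.6, 16, 14.4 and 60.7 against 40.1, 70, 34 and 39.3 FPKM (0.79 ± 0.44) for Bgn and at 22.6, 4.9, 6.21 and 15.9 against 32.1, 23.1, 11.3 and 18.6 FPKM (0.88 ± 0.49) for Fmod.

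**Figure D4:**
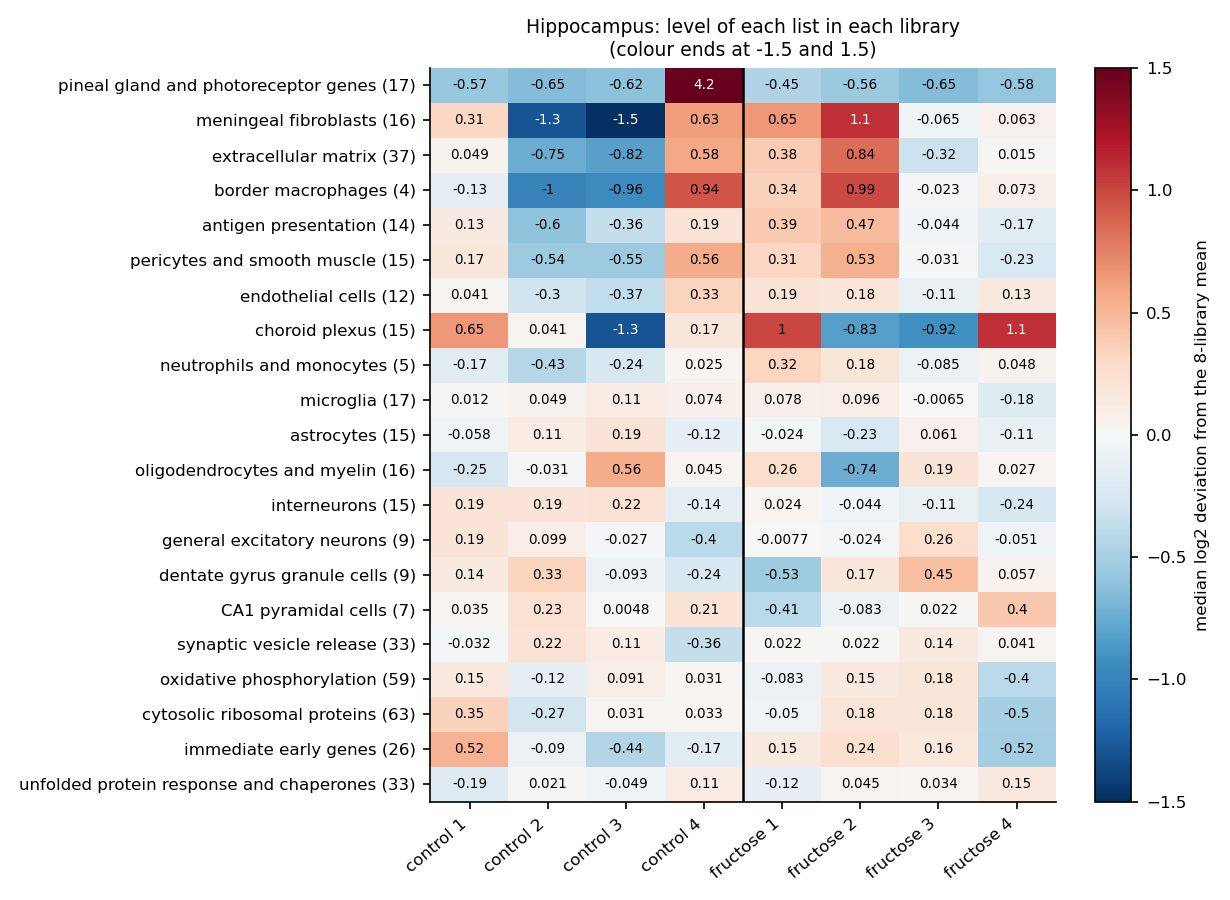
Median log2 deviation of each list's tested members from their 8-library mean (colour and printed value) in each hippocampus library (columns), with the number of members beside each list. Control 2 and control 3 are low for meningeal, matrix, border macrophage and antigen presentation genes, fructose 2 is high for the same lists and low for myelin, and control 4 alone is high for pineal and photoreceptor genes.

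Of 14 tested antigen presentation genes 11 were positive and 3 negative (median 0.11), and the class II genes among them followed the same libraries. RT1-Ba, a chain of a rat class II molecule, was at 1.81, 0.674, 0.22 and 4.16 against 5.52, 5.49, 4.09 and 1.89 FPKM (1.10 ± 0.46), and Cd74, its invariant chain, at 90.2, 15.5, 11.4 and 84.3 against 110, 171, 50.5 and 77.1 FPKM (1.40 ± 0.72). Here too the lowest libraries were control 2 and control 3. Clec10a, a lectin of border macrophages, was at 6.99, 2.23, 1.81 and 13.6 against 11.1, 17.3, 6.9 and 6.92 FPKM (0.93 ± 0.54). Vascular lists were positive to a smaller extent, with 11 of 12 endothelial genes (median 0.13) and 13 of 15 mural genes (median 0.20). Choroid plexus genes had 12 positive of 15 (median 0.11) but the median ranged from -0.23 without fructose 4 to 0.45 without fructose 3. Ttr, the transthyretin of choroid plexus and the tested locus with the highest mean, was at 7409, 2900, 1159 and 2440 FPKM in control and 5609, 1539, 1452 and 4166 FPKM in fructose libraries (-0.05 ± 0.64). Whether the content of meninges, vessels and choroid plexus in each dissected sample sets these differences was not tested.

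Lists of glia within the tissue followed single libraries as well. Microglial markers divided into 7 positive and 10 negative (median -0.01). The groups parted for 1 of the 17, which was lower in fructose libraries, set beside 0.413% of all tested loci. Itgam, an integrin chain of the complement receptor CR3, was at 3.45, 4.91, 2.71 and 3.33 against 4.18, 4.94, 4.41 and 4.8 FPKM (0.30 ± 0.15). Control 2 lay inside the fructose range. Astrocyte markers had 4 positive and 11 negative members (median -0.04) and myelin markers 4 and 12 (median -0.06). The myelin median was 0.08 without control 3, 0.15 without fructose 2 and -0.44 with array weights, and that of precursors (3 and 4, median -0.05) ranged from -0.31 to 0.18. Mbp, myelin basic protein, was at 1150, 1091, 1955 and 1920 against 1622, 701, 1574 and 1331 FPKM (-0.25 ± 0.32), lowest in fructose 2, the library highest for meningeal genes. Inflammation and NF-kappa-B genes had 17 positive and 7 negative members (median 0.10), interferon-induced genes 17 and 5 (median 0.13) and complement genes 12 and 5 (median 0.12). Of the 17 tested complement genes, Gpr77 was the single one whose groups did not overlap, set beside 0.255% of all tested loci that parted higher.

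Signalling and stress lists lay close to the median of all loci. Insulin, IGF and leptin signalling had 20 positive and 12 negative members (median 0.04), with the insulin receptor gene Insr at 4.28 to 7.58 against 6.23 to 7.18 FPKM (0.07 ± 0.16). The 3 largest values of that list belonged to Igf2 (1.09), Igfbp2 (0.84) and Igfbp6 (0.72), the first of which is also on the meningeal list. Glucocorticoid-responsive genes had 13 and 8 (median 0.07), led in size by Sult1a1 at 12.1, 6.46, 8.9 and 28.9 against 30.5, 43.4, 14 and 16.1 FPKM (0.91 ± 0.49), while Fkbp5, the co-chaperone of the glucocorticoid receptor, was at 16.8, 23.2, 19.9 and 23.4 against 24.8, 22.5, 24.3 and 26.4 FPKM (0.23 ± 0.13). The unfolded protein response and chaperone list had 28 positive and 5 negative members (median 0.07). Pdia4, a disulfide isomerase, was at 13.6, 16.1, 15.9 and 18.6 against 19.1, 19.9, 17.1 and 25.2 FPKM (0.32 ± 0.14), and Herpud1, a gene of endoplasmic reticulum degradation, at 26.5, 24.3, 24.2 and 38.5 against 35.4, 34.6, 30.6 and 42.2 FPKM (0.34 ± 0.17). In both, control 4 was the only control within the fructose range.

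Fatty acid genes had 16 positive and 17 negative members (median -0.00), cholesterol genes 21 and 15 (median 0.02) and antioxidant genes 12 and 22 (median -0.04). In the DNA methylation list (9 and 7, median 0.02), Dnmt1, the maintenance methyltransferase, was at 9.04, 8.61, 8.66 and 8.44 against 8.22, 8.26, 8.17 and 8.34 FPKM. Its groups did not overlap, but by a small amount (-0.07 ± 0.08). Amino acid genes had 12 and 16 (median -0.03), with Slc38a2, a neutral amino acid carrier, at 26.4, 31.7, 48.2 and 29.8 against 50.9, 39.7, 38.5 and 45.7 FPKM (0.38 ± 0.19), where control 3 alone lay among the fructose libraries.

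The hippocampal differences were then set beside those of hypothalamus, where 4 control and 3 fructose libraries have a column. The difference between the tissues was tested over 8239 symbols with 1 locus in each table, and limma found 0 symbols (0%) past an adjusted p of 0.05 and 209 (2.54%) at an unadjusted p under 0.05. With array weights 339 symbols passed the adjusted threshold, and without hypothalamus control 3 there was 1. Rpl30 in hypothalamus was at 2.04, 8.28, 14.7 and 8.29 FPKM in control and at 1.16, 2.28 and 1.29 FPKM in fructose libraries, a log2 fold change of -1.66 ± 0.51. Control 1 there lay between the fructose values. Slc39a12 was at 1.45, 1.09, 0.964 and 1.01 against 8.28, 9.63 and 9.05 FPKM, a value of 2.23 ± 0.13 with an adjusted p of 0.00382 in limma. The difference between the tissues was -0.72 ± 0.70 for Rpl30 and -0.38 ± 0.57 for Slc39a12 (limma adjusted p = 1 for both). S100a9 was at 4.55, 1, 5.73 and 0 against 2.89, 1.56 and 2.09 FPKM in hypothalamus, where the controls spanned the fructose values. Msi1 and Pde9a had values of 0.12 ± 0.42 and -0.01 ± 0.12 there.

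The covering and matrix genes had opposite signs in the tissues. Of the 14 meningeal markers tested in both, 14 were positive in hippocampus and 14 negative in hypothalamus (medians 0.72 and -1.15), and of 32 matrix genes 31 were positive in hippocampus and 30 negative in hypothalamus (medians 0.53 and -0.59). At an unadjusted p under 0.05, 13 of the former and 13 of the latter differed between the tissues, and 0 at an adjusted p. Over all 8239 symbols the unadjusted share was 2.54%. The lists share genes such as Mgp and followed the same hippocampal libraries, so these counts are not independent. Which hypothalamus libraries carry the negative values was not tested. Interneuron markers had medians of -0.24 and 0.14 over 10 genes, with 0 differing at an unadjusted p under 0.05. Among the named genes with the smallest p of the tissue difference, those with a higher hippocampal value included Slc28a2, a nucleoside transporter (0.28 ± 0.18 in hippocampus and -0.95 ± 0.28 in hypothalamus), and Chst15, a sulfotransferase of chondroitin sulfate (0.34 ± 0.14 and -0.37 ± 0.16). Lrrc46 had the lower value in hippocampus (-0.23 ± 0.13 and 0.56 ± 0.17), and all 3 had an adjusted p of 1 in limma. Chst15 was at 9.61, 8.81, 9.95 and 8.67 FPKM in hippocampal control and 10.1, 10.4, 15.3 and 12.9 FPKM in hippocampal fructose libraries, without overlap. Whether both tissues were taken from one set of animals is not stated.

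**Figure D5:**
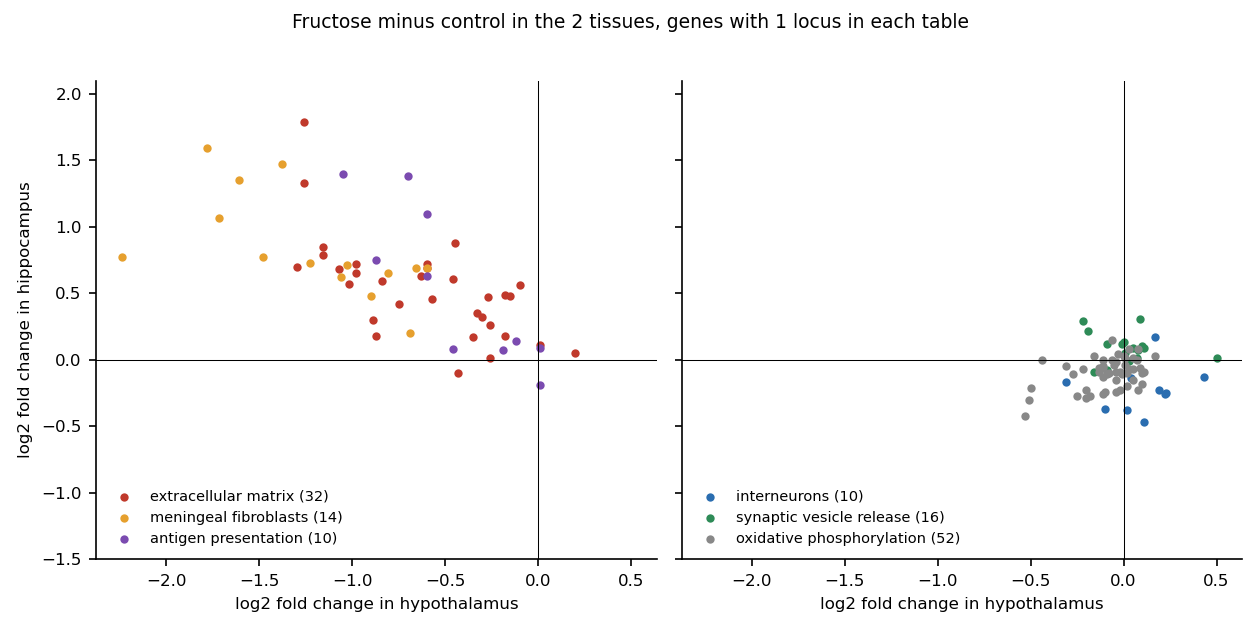
Log2 fold change (fructose minus control) in hippocampus (vertical axis) against hypothalamus (horizontal axis), each point a gene with 1 locus in each table. Matrix, meningeal and antigen presentation genes (left) lie mostly at positive hippocampal and negative hypothalamic values, and the genes at right lie closer to the origin, with 9 of 10 interneuron markers negative in hippocampus and 8 of 10 positive in hypothalamus.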

How the data were processed

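Poly-A RNA from total RNA was sequenced on an Illumina instrument and demultiplexed with CASAVA, per the labels' protocols. The authors deposited FPKM per locus and library with a status flag; build rn5 is given in the submitters' processing notes, beside the aligners Bowtie, Bowtie2, TopHat and TopHat2 and the quantifiers Cuffdiff and Cufflinks. Replicates were not pooled. A gene is the symbol paired with a locus; 1743 symbols have several loci, and lists use the tested locus with the highest mean. Values with a status other than OK occur for 105 tested loci, which were kept, and an exact 0 for 382.

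Testing used limma 3.58.1 (R 4.3.3) on log2(FPKM + 1) for loci whose mean reached 1 FPKM (trend in the prior variance, group as the only term, two-sided, Benjamini-Hochberg at 0.05); the script was tested on simulated data. The tissues were compared with an interaction term. FPKM hold no depth, so precision rests on the replicates, and intervals from counts cannot be given.

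Members and lists were chosen with earlier results of these data known. The text names the 15 non-overlapping loci per direction with the smallest p, up to 4 members of each list by p, a fixed set (Khk, Slc2a5, Sord, Hk1, Insr, Bdnf, Bgn, Fmod, Slc39a12, Prox1, Wfs1, Pmch, Agrp, Ttr), loci by within-group spread, replicate 1 term and tissue difference, and the 5 highest loci; placeholder symbols were passed over, and some genes are not reported here. Other named genes, mainly members that define a list, were chosen after their values were seen.

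Replicates are numbered in the sample titles without a stated meaning. Pairs with one number deviated together from their group means (r = 0.892, 0.208, 0.481 and 0.410, all over 0.1), and a blocked fit was therefore run as well. Over replicates 2 to 4 alone they were -0.226, 0.404 and 0.0882. Over all replicates control 2 deviated most like fructose 4 and control 4 most like fructose 2, so the numbers are not shown to define pairs. Alternatives were another pseudocount (0.1), no filter or a mean of at least 5 FPKM, median-ratio scaling, quantile normalization, a replicate block, a replicate 1 term, both replicate 1 libraries left out, array weights, status OK only, loci summed by symbol and each library left out in turn. Leaving out control 4 with both replicate 1 libraries, and summing loci before the replicate 1 test, were added after seeing the data. List medians were not computed without control 4 and both replicate 1 libraries. Figures were drawn with matplotlib 3.10.9.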

Additional observations from a re-analysis of the deposited data

Results flagged for a closer look

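In each group of 4 libraries, a library was marked where its gap to the nearest other passed Dixon's 95% critical value as a share of the group's range. Of 238 groups examined for the genes and lists described, 18 were marked, and chance marks about 5 in 100. Control 4 was highest for S100a9 (1.49 FPKM), Arl6 (19.8 FPKM), Herpud1 (38.5 FPKM) and the pineal and photoreceptor list (median log2 deviation 4.2) and lowest for the interneuron list (-0.137). Control 2 was highest for Eif5b (5.67 FPKM), Tac2 (35.6 FPKM), which encodes neurokinin B, and Bdnf (14.1 FPKM). Fructose 1 was highest for Rpl30 (6.69 FPKM), Sord (20.6 FPKM) and the glucocorticoid-responsive list (0.353), fructose 2 for Col1a1 (191 FPKM) and Bgn (70 FPKM). Fructose 3 was highest for the general excitatory neuron list (0.265) and the vesicle release list (0.141). Fructose 4 was highest for Ptger3 (1.77 FPKM) and the GABA synapse list (0.197) and lowest for the immediate early genes (-0.517).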

How the results depend on the processing

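The count of loci past an adjusted p of 0.05 was 0 under every alternative run except without control replicate 3, where it was 1. The 92 loci at an unadjusted p under 0.05 became 204 with no filter, 42 at a mean of at least 5 FPKM, 203 with the replicate block, 152 without both replicate 1 libraries, 478 without control replicate 4 as well (347 higher, 131 lower) and 658 with array weights (427 higher, 231 lower); with single libraries left out the range was 65 to 243, with 182 higher and 61 lower without control replicate 4. The 76 loci whose groups do not overlap became 140 with no filter, 40 at 5 FPKM, 461 without both replicate 1 libraries, 2053 without control replicate 4 as well, and 141 to 327 with single libraries left out; fewer libraries overlap less often by construction. The replicate block changed no other call. The 737 loci of the replicate 1 term became 146 after summing by symbol. The tissue difference had 339 symbols past the threshold with array weights and 0 to 1 with single libraries left out. Signs turned for genes near 0: Hk1 (-0.03 without both replicate 1 libraries, -0.29 without control replicate 4 as well, -0.12 with array weights, -0.17 to 0.10 with single libraries left out, negative without control replicate 4, fructose replicate 1 at -0.04 or fructose replicate 3), Insr (-0.14 without those 3 libraries, -0.09 with array weights, -0.05 summed by symbol, -0.09 to 0.14 with single libraries left out, lowest without control replicate 4), Sord (-0.02 without both replicate 1 libraries, -0.04 to 0.10 with single libraries left out, lowest without fructose replicate 1), Bdnf (-0.07 without fructose replicate 3 to 0.31 without fructose replicate 1) and Slc2a5 (-0.04 without those 3 libraries). List medians that moved beyond their spread were CA1 markers (-0.24 without control replicate 1 to 0.25 without fructose replicate 1), microglia (-0.06 without control replicate 2 to 0.15 without fructose replicate 4), cilia (-0.50 without both replicate 1 libraries, -0.51 with array weights), insulin signalling (-0.02 with array weights, -0.02 without fructose replicate 4 to 0.09 without control replicate 2), monoamines (-0.15 with array weights), antigen presentation (0.73 at 5 FPKM), purines (-0.00 at 5 FPKM and summed by symbol, -0.03 with array weights, -0.04 without fructose replicate 4 to 0.06 without control replicate 3) and DNA methylation (-0.05 without control replicate 1 to 0.04 without fructose replicate 1). The cause was not tested. FPKM without counts give no depth, so how far low expression limits these comparisons is unknown.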
